A study of Mus musculus with 6 samples.

Results

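The genes that carry a cell from G1 into S phase were followed in primary mouse chondrocytes after knockdown of Pkm2: the D-type cyclins Ccnd1, Ccnd2 and Ccnd3, their kinases Cdk4 and Cdk6, the E-type cyclins Ccne1 and Ccne2 with their kinase Cdk2, the retinoblastoma gene Rb1 and the transcription factor E2f1. These 10 genes were chosen by name from the 55416 genes of the deposited expression table, and each was found once. In G1, D-type cyclins bind CDK4 or CDK6 and begin to phosphorylate the retinoblastoma protein, which until then holds E2F factors inactive on their target genes. Freed E2F factors transcribe the E-type cyclins and the genes of DNA replication, and cyclin E with CDK2 completes the phosphorylation of the retinoblastoma protein. In cartilage, D-type cyclins are known for the proliferation of growth plate chondrocytes, whereas articular chondrocytes of the adult divide rarely.

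RNA-seq compared 3 libraries of cells given a scrambled control siRNA (siNC) with 3 libraries of cells given an siRNA against Pkm2 (siPkm2), with replicate numbers 1 to 3 in each group. The labels give the tissue as neonatal mouse knee joints and the genotype of the siNC cells as WT, and state culture in DMEM/F12 with FBS for both groups. The supplementary methods instead describe unpassaged articular chondrocytes of adult mice, transfected with Lipofectamine RNAiMAX, so the age of the cultures is not settled. The genotype labels of siPkm2 replicates 1, 2 and 3 read PKM2, PKM3 and PKM4 knockdown, while their titles read siPKM2, and all 3 were taken as siPkm2. The sources used here give neither strain, sex nor hours after transfection for the sequenced cultures, nor which of the designed siRNAs against Pkm2 they received. They also do not say whether animals were pooled, or whether replicates were separate cultures or animals, so the p-values measure the spread between these libraries, which may be technical.

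Total estimated counts lay between 22317065 and 25691096 per library, and within each group the libraries differed by more than counting noise. Levels of a gene across libraries are given as CPM, the count as a share of the library's total after scaling by TMM factors. Pkm, the targeted gene, stood at 2335, 2746 and 1674 CPM in siNC replicates 1 to 3 and at 336, 541 and 309 CPM in siPkm2, a log2 fold change of -2.51 (SE 0.33) with an adjusted p of 0.0738 by edgeR's quasi-likelihood test and 0.00932 once the replicate number entered the fit as a block. The groups did not overlap, but these counts are of the whole gene, so the Pkm1 and Pkm2 isoforms cannot be told apart. The replicate 2 library of each group stood apart from its group: the summed level of 8 chondrocyte markers was lowest there, at 10031 CPM in siNC and 13988 CPM in siPkm2, against up to 46449 and 40168 CPM in the other libraries. Among markers of other cells, the summed ranges in siNC and siPkm2 were 5.21 to 59.4 and 7.63 to 36.9 CPM for 7 macrophage genes (3 above the filter on low counts). They were 1.18 to 2.39 and 2.45 to 2.80 CPM for 6 endothelial genes (1 above it), and 3.64 to 7.85 and 1.77 to 3.02 CPM for 6 muscle genes (3 above it). The endothelial sum was higher in siPkm2 in each pair and the muscle sum lower, but Vwf, the endothelial gene above the filter, and Myh3 of the muscle genes were mixed. The corresponding ranges were 24.5 to 375 and 17.8 to 141 CPM for 5 osteoblast genes, and 3075 to 5868 and 1601 to 3569 CPM for 6 fibroblast genes. The osteoblast sum was lower in siPkm2 in each pair. Ibsp made up most of it, at 339, 19.7 and 190 CPM in siNC and 112, 13.6 and 43.4 CPM in siPkm2, while Sp7 and Phex were mixed over the pairs. None of these marker genes was at 0 in all 6 libraries. In such bulk samples, fewer cells of a type and less RNA per cell cannot be told apart, and the part of cell composition in the results was not tested.

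All 10 genes were expressed at a level that passed the filter on low counts. Per length, in TPM, they fell into an abundant set and a scarce set. In siNC the means were 187 ± 54.9 TPM for Cdk4, 186 ± 8.08 for Ccnd3, 158 ± 26.4 for Ccnd1 and 129 ± 40.8 for Ccnd2 (SD, n = 3). Cdk2 followed at 25.3 ± 4.02 TPM, then E2f1 at 22.4 ± 5.72, Ccne1 at 15.8 ± 5.07, Cdk6 at 9.45 ± 5.09, Ccne2 at 8.52 ± 4.69 and Rb1 at 7.68 ± 1.73. The step from Ccnd2 to Cdk2 was the one place in this order where neighbours differed by more than their summed SDs. Neighbours elsewhere had overlapping ranges, apart from Ccnd3 and Ccnd1, whose ranges were separate although their means lay within the summed SDs. In siPkm2 the same 4 genes led, at 192 ± 22.9 TPM for Ccnd3, 171 ± 39.7 for Cdk4, 142 ± 24.3 for Ccnd1 and 92.7 ± 28.1 for Ccnd2. Below them, Ccne1 moved from the third to the first place of the scarce set, with 25.1 ± 7.58 TPM against 23.8 ± 5.24 for Cdk2, a difference within their spread. E2f1 stood at 17.0 ± 5.08, Cdk6 at 9.71 ± 5.31, Ccne2 at 7.49 ± 4.82 and Rb1 at 7.10 ± 0.858 TPM.

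**Figure D1:**
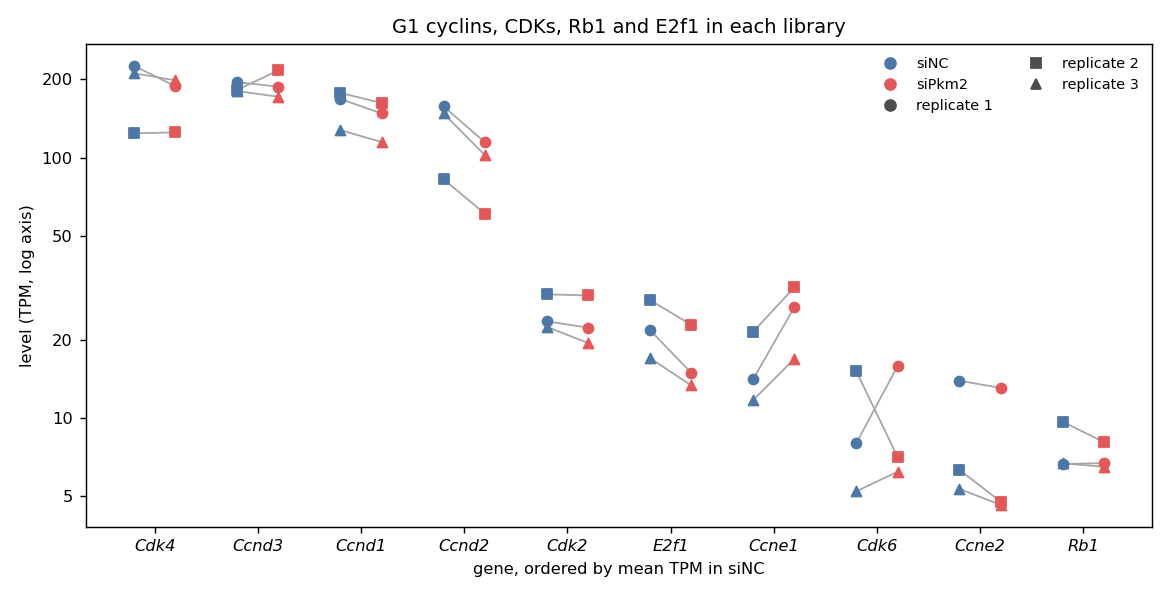
Level in TPM (log axis) of each of the 10 genes in the 3 siNC and 3 siPkm2 libraries, with symbols for the replicate number and lines joining libraries of the same number. The D-type cyclins and Cdk4 lie above 60 TPM and the other 6 genes below 35 TPM in every library, and the lines of Ccne1 all go up from siNC to siPkm2 while those of Ccnd2 all go down.

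Without the replicate number in the fit, 0 of the 10 genes were called at an adjusted p under 0.05 and a fold over 2, and 0 reached an unadjusted p under 0.05 by edgeR. The same fit called 0% of the 15269 genes tested and put 17.6% of them at an unadjusted p under 0.05. By DESeq2, 0 of the 10 had an adjusted p under 0.05 at any fold, against 829 of 15419 genes. Of the 10, 1 had an unadjusted p under 0.05 by DESeq2, and the share of all genes at that level was not counted. None of the 10 separated the groups without overlap in CPM, against 24.3% of all genes tested. The median log2 fold change of the 10 was -0.13, with 3 positive and 7 negative values, and that of all genes tested was -0.02.

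In the fit with the block, which compares libraries of the same number, Ccne1 rose and Ccnd2 fell at an adjusted p under 0.05. These were 2 of 10 genes, where the same rule at any fold called 23.1% of all genes tested, 12.3% higher and 10.8% lower in siPkm2. At a fold over 2 the block fit called 0 of the 10 and 5.83% of all genes. The direction was the same in all 3 replicate pairs for 6 of the 10 genes: Ccne1 was higher in siPkm2, and Ccnd1, Ccnd2, Ccne2, Cdk2 and E2f1 were lower. For all genes tested that share was 61.1%, of which 30.5% were higher in every pair and 30.6% lower. Both shares of the 10 genes thus lay near their backgrounds.

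**Figure D2:**
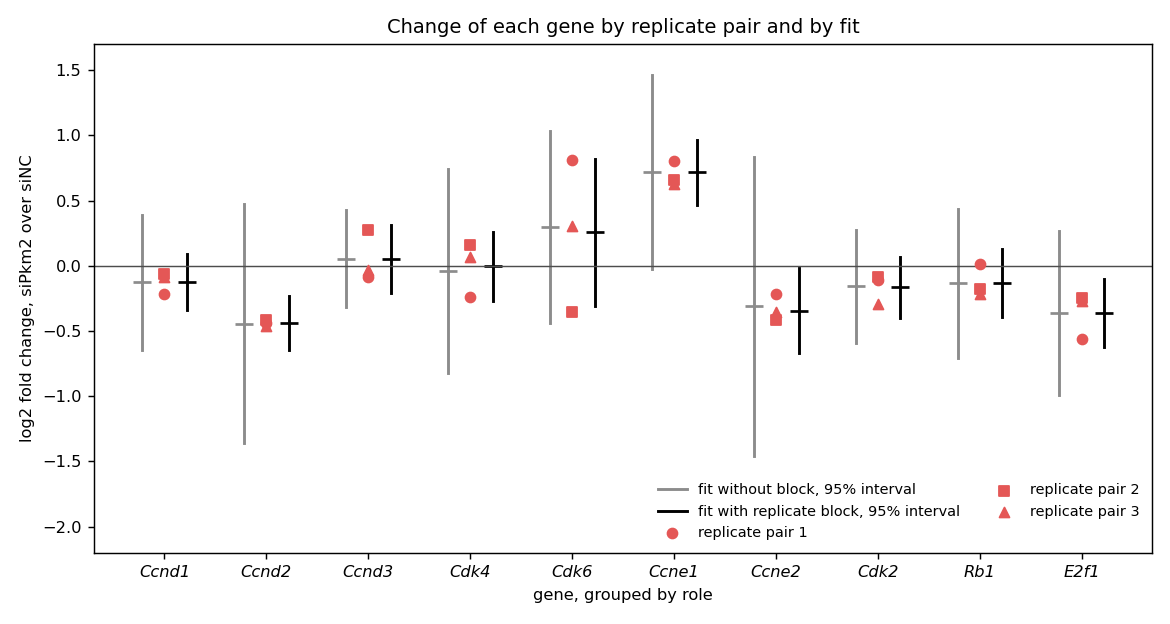
Log2 fold change of siPkm2 over siNC for each gene, with the 3 replicate pairs as symbols and the estimates with 95% intervals of the fits without a block (grey) and with the replicate number as a block (black). All grey intervals cross 0, and the black interval of Ccne1 lies above 0 while those of Ccnd2, Ccne2 and E2f1 lie below it, of which Ccne1 and Ccnd2 passed the adjustment over all genes.

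Ccnd1, the D-type cyclin most tied to growth factor signalling (ENSMUSG00000070348, chromosome 7, 144929931 to 144939925, GRCm38), stood at 407, 377 and 281 CPM in siNC replicates 1 to 3 and at 350, 361 and 265 CPM in siPkm2. Replicate 3 was lowest in both groups, and the groups overlapped. Its log2 fold change was -0.13 (SE 0.22, 95% interval -0.64 to 0.39, edgeR adjusted p 0.817), so a fall to 0.64 times or a rise to 1.31 times its siNC level lay within the interval.

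Ccnd2, a D-type cyclin known for mitogen and hormone responses (ENSMUSG00000000184, chromosome 6, 127125162 to 127152193), stood at 633, 298 and 554 CPM in siNC and 468, 223 and 402 CPM in siPkm2. In both groups replicate 2 was lowest, below the other replicates of either group, which made the groups overlap. Within each pair siPkm2 was lower by nearly the same factor, with log2 ratios of -0.44, -0.42 and -0.46. Without the block the log2 fold change was -0.44 (SE 0.38, 95% interval -1.36 to 0.47, adjusted p 0.602), and with it -0.44 (SE 0.08, 95% interval -0.65 to -0.23, adjusted p 0.0233). The call needed all 3 pairs or pairs 1 and 3. With both libraries of replicate 1 or of replicate 3 left out, the block fit gave -0.44 and -0.43 with adjusted p of 0.138 and 0.176. It then called 0 genes in all at any fold. In these fits 2 and 3 of the 10 had an unadjusted p under 0.05, and the share of all genes at that level was not counted. With both libraries of replicate 2 left out, the block fit gave -0.46 with an adjusted p of 0.00798. That fit put 5941 of 15185 genes, and 4 of the 10, at an adjusted p under 0.05 at any fold.

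Ccnd3, the D-type cyclin expressed in most differentiated tissues (ENSMUSG00000034165, chromosome 17, 47505051 to 47599691), stood at 186, 158 and 157 CPM in siNC and 176, 191 and 154 CPM in siPkm2. It was the steadiest of the D-type cyclins, and only pair 2 was higher in siPkm2. Its log2 fold change was 0.05 (SE 0.15, 95% interval -0.32 to 0.42, adjusted p 0.896).

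Summed over the D-type cyclins, siNC held 473 ± 42.0 TPM and siPkm2 426 ± 32.9 TPM (SD, n = 3; exact two-sided permutation p = 0.2, where the smallest possible is 0.1), and each pair was lower in siPkm2. Such a test over libraries leaves the pairs aside, and an exact sign-flip test over 3 pairs cannot go below 0.25. Ccnd1 made up 32.3%, 40.1% and 28.0% of that sum in siNC and 32.9%, 36.9% and 29.5% in siPkm2. Its share did not differ beyond the spread between replicates (-0.365 points, exact permutation p = 1). Ccnd2 made up 30.2%, 18.7% and 32.4% in siNC and 25.5%, 13.9% and 26.3% in siPkm2, a difference of -5.22 points (exact permutation p = 0.5) that had the same sign in all 3 pairs. The share of Ccnd3, singled out after the values were seen, was 37.5%, 41.2% and 39.5% in siNC and 41.7%, 49.2% and 44.1% in siPkm2. It was higher in each pair, and these groups did not overlap, with means of 39.4% ± 1.88 and 45.0% ± 3.87, and the exact permutation p of 0.1 is the smallest that 3 against 3 libraries allow. Adjusted over the 10 sums and shares compared, it was 0.714, and no other was lower.

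**Figure D3:**
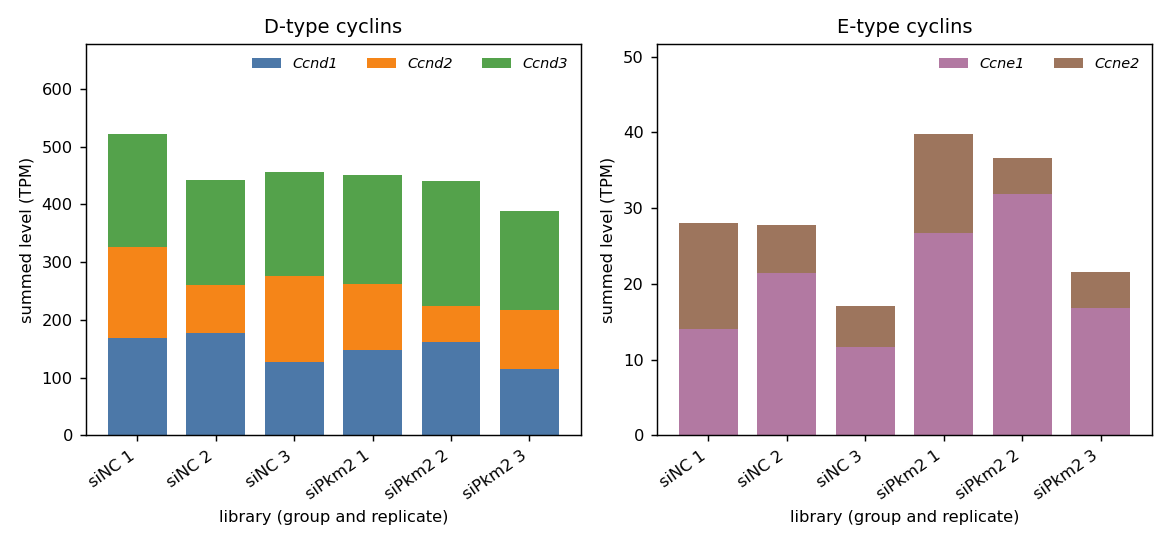
Summed level (TPM) of the D-type cyclins (left) and the E-type cyclins (right) in each library, with stacked bars for the single genes. In every library Ccnd3 is the largest part of the D-type sum, and the Ccne1 part is larger in siPkm2 than in siNC for each replicate number.

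Cdk4, the more abundant of the kinases that D-type cyclins activate (ENSMUSG00000006728, chromosome 10, 127063534 to 127067920), stood at 258, 122 and 210 CPM in siNC and 219, 136 and 220 CPM in siPkm2. Replicate 2 was the lowest in both groups by a wide margin, and the pairs disagreed in direction. The log2 fold change was -0.04 (SE 0.33, 95% interval -0.82 to 0.75, adjusted p 0.968). Of the variance of its log2 CPM over the 6 libraries, 95.5% lay between replicate numbers and 0.0041% between the groups.

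Cdk6, the other D-type cyclin kinase (ENSMUSG00000040274, chromosome 5, 3341485 to 3531008), stood at 37.1, 45.3 and 28.3 CPM in siNC and 65.5, 35.2 and 35.1 CPM in siPkm2. Only siPkm2 replicate 1 lay above the siNC range, and the pairs went different ways, with log2 ratios of 0.81, -0.36 and 0.31. The log2 fold change was 0.30 (SE 0.31, 95% interval -0.44 to 1.03, adjusted p 0.675), and with the block it was 0.26 with an adjusted p of 0.431. In the block fit without both libraries of replicate 2, 5941 of 15185 genes had an adjusted p under 0.05. Cdk6 stood there at 0.57 with an adjusted p of 0.0149. Without both libraries of replicate 1, Cdk6 stood at -0.03 with an adjusted p of 0.944. Its deposited counts and TPM did not move in step: the transcript length that count over TPM implies was 7992, 5941 and 10339 bases in siNC and 7237, 9387 and 10264 bases in siPkm2. The highest was 1.74 times the lowest, against a median of 1.10 times over 9183 genes, which put Cdk6 at the 98.5th percentile. On TPM the difference between the groups was smaller, a log2 fold change of 0.040 on the log2(TPM + 1) scale and 0.046 on the log2(TPM + 0.1) scale by limma. Why counts and TPM differ was not tested. By TPM, Cdk6 made up 3.43%, 10.9% and 2.42% of Cdk4 plus Cdk6 in siNC and 7.74%, 5.36% and 3.04% in siPkm2 (exact permutation p = 0.9). The sum of both kinases was 196 ± 50.2 TPM in siNC and 180 ± 41.7 TPM in siPkm2 (SD, n = 3; exact permutation p = 0.5), lower in each pair.

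Ccne1, the E-type cyclin that activates CDK2 at the entry into S phase (ENSMUSG00000002068, chromosome 7, 38097984 to 38107534), stood at 15.6, 21.8 and 12.0 CPM in siNC and 27.7, 34.7 and 18.7 CPM in siPkm2. Each siPkm2 library was above the siNC library of its number, and the groups overlapped through siPkm2 replicate 3, which lay below siNC replicate 2. The log2 ratios of the pairs were 0.81, 0.66 and 0.63. Without the block the log2 fold change was 0.72 (SE 0.31, 95% interval -0.03 to 1.46) with a p of 0.0565 and an adjusted p of 0.297, a fold of 1.64. With the block it was 0.72 (SE 0.10, 95% interval 0.47 to 0.96, adjusted p 0.0142). Without both libraries of replicate 1, 2 or 3, the block fit gave 0.66, 0.73 and 0.75, with adjusted p of 0.0855, 0.00503 and 0.106.

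The RefSeq window from 250 bases before to 50 after the start of Ccne1 is shown because this was the gene of the 10 with the largest log2 fold change. It lies at chr7:38107441-38107740 on the minus strand of GRCm38.p6. Capitals mark GGGCGG, the core of the GC box, on either strand.
Ccne1: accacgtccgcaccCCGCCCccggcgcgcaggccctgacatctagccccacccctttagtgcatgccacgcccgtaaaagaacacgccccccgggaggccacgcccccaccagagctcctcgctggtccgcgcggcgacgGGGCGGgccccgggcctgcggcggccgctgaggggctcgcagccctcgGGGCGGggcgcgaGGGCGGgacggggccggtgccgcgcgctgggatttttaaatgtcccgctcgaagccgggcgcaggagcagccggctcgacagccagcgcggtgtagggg
The window holds 4 matches to GGGCGG, and 35.7% of the 32851 promoter windows hold it at least once on either strand. GGGCGG was also found 6 times in Cdk2, 5 in E2f1, 3 in Cdk4, 2 in each Ccnd3 window and 0 in Cdk6. The Ccne1 window holds 0 matches to TTTNNCGC, the letters searched for an E2F element, which 5.2% of all windows hold. Of the 6 genes with a promoter window in the RefSeq table (Ccnd3, Cdk2, Cdk4, Cdk6, Ccne1 and E2f1), TTTNNCGC was found once in Cdk2 and once in Cdk6. CACGTG, the E-box letters that MYC and related factors bind, was found 4 times in Cdk4 and once in Cdk6, and in 7.2% of all windows. These are matches of letters in a window, not sites of binding.

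Ccne2, the second E-type cyclin (ENSMUSG00000028212, chromosome 4, 11191351 to 11204779), stood at 18.0, 8.82 and 8.28 CPM in siNC and 15.4, 6.50 and 6.35 CPM in siPkm2. Replicate 1 stood above the others in both groups, and each siPkm2 library was below its siNC partner. The log2 fold change was -0.31 (SE 0.48, 95% interval -1.46 to 0.83, adjusted p 0.791). For Ccne2 too, the length that count over TPM implies varied, from 2068 to 2966 bases or 1.43 times, against the median of 1.10 times. Ccne2 made up 49.7%, 22.8% and 31.3% of the E-type cyclin TPM in siNC and 32.8%, 13.0% and 21.6% in siPkm2. The difference of -12.1 points had the same sign in all 3 pairs, with an exact permutation p of 0.4 over libraries and an exact sign-flip p of 0.25 over pairs, the smallest that 3 pairs allow. The sum of both E-type cyclins was 24.3 ± 6.25 TPM in siNC and 32.6 ± 9.73 TPM in siPkm2 (SD, n = 3; exact permutation p = 0.3), higher in each pair.

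Cdk2, the kinase of the E-type cyclins (ENSMUSG00000025358, chromosome 10, 128697939 to 128705031), stood at 34.5, 38.1 and 30.9 CPM in siNC and 31.9, 35.9 and 25.1 CPM in siPkm2. The groups overlapped, and the order of the replicates was the same in both. Cdk2 had a log2 fold change of -0.16 (SE 0.18, 95% interval -0.59 to 0.28, adjusted p 0.714).

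Rb1, which encodes the pocket protein that restrains E2F factors (ENSMUSG00000022105, chromosome 14, 73183673 to 73325822), stood at 18.9, 27.5 and 18.7 CPM in siNC and 19.1, 24.2 and 15.9 CPM in siPkm2. Replicate 2 was highest in both groups. For Rb1 the log2 fold change was -0.14 (SE 0.24, 95% interval -0.71 to 0.44, adjusted p 0.823).

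E2f1, the activating E2F factor and itself a target of E2F (ENSMUSG00000027490, chromosome 2, 154559407 to 154569892), stood at 38.0, 43.5 and 26.9 CPM in siNC and 25.6, 36.6 and 22.2 CPM in siPkm2. Each siPkm2 library was below its siNC partner, by log2 ratios of -0.56, -0.25 and -0.27, and the groups overlapped. The log2 fold change was -0.36 (SE 0.26, 95% interval -0.99 to 0.27, adjusted p 0.527), and with the block it was -0.36 (SE 0.10) with an adjusted p of 0.0579. Among the block fits run, it passed the threshold only without both libraries of replicate 2, at -0.43 with an adjusted p of 0.0251. In that fit 5941 of 15185 genes had an adjusted p under 0.05. Without both libraries of replicate 1 or of replicate 3, the adjusted p was 0.276 and 0.206.

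The replicate number carried most of the variance in most of these genes, though not in Cdk6 (48.0%) or Ccne1 (49.7%). There are more replicate numbers than groups, so the parts of this split are not on an equal footing. Of the variance of log2 CPM over the 6 libraries, the median over the 10 genes was 78.7% between replicate numbers, 10.1% between siNC and siPkm2 and 4.09% in the remainder. Over all genes tested the medians were 56.6%, 24.4% and 7.99%. The share between the groups was largest in Ccne1, at 49.7%, equal to that between its replicate numbers, and next in E2f1, at 27.3%. For Ccnd2, 81.8% lay between replicate numbers, 18.1% between the groups and 0.0316% in the remainder. Ccnd3 and Cdk6 had remainders of 40.6% each, the parts that neither the number nor the group held.

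**Figure D4:**
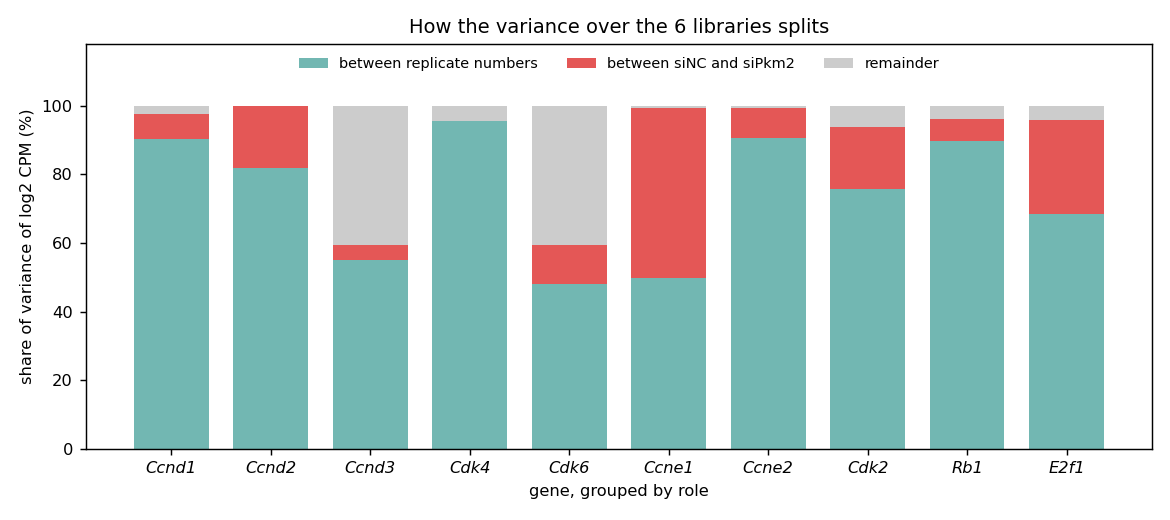
Share (%) of the variance of log2 CPM over the 6 libraries that lay between replicate numbers, between siNC and siPkm2, and in the remainder, for each gene. The part between the groups is largest in Ccne1 (49.7%) and under 30% in the other 9 genes.

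The seed of the siRNA is shown because an siRNA can also lower transcripts that match its bases 2 to 8, which are in capitals. The supplement names the third siPkm2 as the one selected for the study, but no source used here ties it to the sequenced cultures.
siPkm2 antisense strand: uGUUUCUCcagacagcaugtt
siNC antisense strand: aCGUGACAcguucggagaatt
The match to the siPkm2 seed, GAGAAAC, was found in 4 of the 10 genes (40.0%), searched in the 3′ untranslated region of greatest annotated length, against 2162 of 13196 genes tested (16.4%). The median length of these regions was 1481 bases for the 10 genes and 1235 bases for all. Of the genes with a match, Cdk6 and Ccnd2 had regions of 10217 and 5173 bases, and E2f1 and Cdk4 of 1281 and 899 bases. The shares were not adjusted for length. Capitals mark the match in each site, in GRCm38 coordinates.
Ccnd2, chr6:127128677-127128683, minus strand: ttgaagatgGAGAAACatctaaggg
Ccnd2, chr6:127128124-127128130, minus strand: agaaagcagGAGAAACctgacccca
Cdk4, chr10:127067052-127067058, plus strand: gtcttggtgGAGAAACcctcgctga
Cdk6, chr5:3527612-3527618, plus strand: agggtgctcGAGAAACacagagctg
E2f1, chr2:154559859-154559865, minus strand: gatgggctgGAGAAACagtcccttt
Of these 4 genes, Ccnd2 (-0.44) and E2f1 (-0.36) had the most negative log2 fold changes of the 10, Cdk4 stood at -0.04 and Cdk6 at 0.30. The match to the siNC seed was in none of the 10. Whether the siRNA acted at these sites was not tested.

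The rest of the pathway was described by 6 lists holding 105 genes, of which 104 were matched and tested. Without the block, 0 of the 104 were called by edgeR and 19 had an unadjusted p under 0.05, a level that 17.6% of all genes tested reached. With it, 9 rose and 25 fell at any fold, and 2 rose and 5 fell at a fold over 2. The block called 23.1% of all genes at any fold, 12.3% higher and 10.8% lower, and 5.83% at a fold over 2. Values below give CPM in replicates 1 to 3, and the log2 fold change and adjusted p in brackets are those of the block fit. Medians and counts of positive and negative log2 fold changes are of the fit without the block. Over all 15269 genes tested, that fit gave 7341 positive and 7928 negative values.

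Among the other pocket proteins, E2F and DP factors and MuvB subunits, 9 of 15 log2 fold changes were positive and the median was 0.07. With the block, 1 gene rose and 1 fell. E2f6, a repressor of E2F targets, rose from 46.0, 51.3 and 41.6 CPM in siNC to 70.1, 64.6 and 59.4 CPM in siPkm2 (log2 fold change 0.48, adjusted p 0.0225). E2f5, which acts with the pocket proteins as a repressor, fell from 20.7, 18.6 and 16.8 CPM to 14.1, 13.3 and 12.3 CPM (-0.50, adjusted p 0.0286). For both genes the groups did not overlap, and without the block their adjusted p was 0.166 and 0.201.

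Of the 7 INK4 and CIP/KIP inhibitors, which bind and restrain the G1 kinases, 6 had a negative log2 fold change, and the median was -0.55. With the block, 4 fell and 1 rose at any fold, where 10.8% of all genes fell and 12.3% rose. Cdkn2a, the gene of p16INK4a and p19ARF, fell from 19.2, 15.4 and 16.2 CPM in siNC to 1.40, 4.40 and 3.29 CPM in siPkm2 (-2.54, adjusted p 0.0161), with no overlap between the groups. Cdkn2b, which encodes p15INK4b, fell from 40.8, 89.2 and 48.7 CPM to 11.3, 49.3 and 19.8 CPM (-1.32, adjusted p 0.0158). The proteins p16INK4a and p15INK4b are inhibitors of CDK4 and CDK6. The counts are of the whole Cdkn2a gene, so the transcripts of p16INK4a and p19ARF cannot be told apart. Cdkn1a, which encodes the p53 target p21, rose from 176, 638 and 161 CPM to 421, 890 and 407 CPM (1.03, adjusted p 0.0222). Its siNC replicate 2 library lay above siPkm2 replicates 1 and 3. Without the block the adjusted p of Cdkn2a, Cdkn2b and Cdkn1a was 0.0966, 0.361 and 0.549.

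Genes of CDK activation, assembly and cyclin turnover had 10 positive and 9 negative log2 fold changes with a median of 0.01, and with the block 2 rose and 1 fell. Cdc25a, the phosphatase that activates CDK2, rose from 19.8, 29.0 and 15.4 CPM to 40.7, 47.5 and 32.7 CPM (0.94, adjusted p 0.0124), without overlap. Wee1, the kinase that inhibits CDK1, fell from 19.6, 17.6 and 18.4 CPM to 16.3, 11.9 and 11.4 CPM (-0.51, adjusted p 0.0433). Without the block their adjusted p was 0.18 and 0.259.

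Among the 30 E2F target genes of G1/S, log2 fold changes were positive in 16 and negative in 14, with a median of 0.07, and with the block 2 rose and 3 fell. Fen1, a nuclease that trims the flaps of lagging strand fragments, rose from 17.4, 15.3 and 13.4 CPM to 33.2, 29.8 and 25.1 CPM (0.93, adjusted p 0.0109). Gins1, a subunit of the replicative helicase, fell from 3.76, 2.14 and 2.67 CPM to 1.82, 1.28 and 0.914 CPM (-1.10, adjusted p 0.0471). Neither gene's groups overlapped, and without the block their adjusted p was 0.117 and 0.235.

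The S, G2 and M cyclins, kinases and proliferation markers had 18 negative log2 fold changes of 18, with a median of -0.72. Of all genes tested, 7928 of 15269 were negative. In 17 of the 18, siPkm2 was lower in all 3 pairs, where that held for 30.6% of all genes. With the block 14 fell, 2 of them at a fold over 2, and none rose. Of all genes, 10.8% fell by that fit at any fold, and 485 of 15269 at a fold over 2. Kif11, a motor of the mitotic spindle, fell from 51.2, 27.8 and 27.7 CPM to 20.3, 12.1 and 12.0 CPM (-1.25, adjusted p 0.00942). Aurka, the Aurora A kinase of the spindle poles, fell from 20.5, 22.9 and 11.8 CPM to 8.86, 12.2 and 5.44 CPM (-1.08, adjusted p 0.0122). Without the block, 9 of the 18 had an unadjusted p under 0.05, against 17.6% of all genes, and the adjusted p of Kif11 and Aurka was 0.158 and 0.229. Against the median of -0.72 of this list, that of the 10 G1 genes was -0.13, and the difference between the lists was not tested.

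The 15 mitogen-response regulators of cyclin D had 9 positive log2 fold changes, a median of 0.09 and, with the block, 3 genes that rose and 2 that fell. Junb, an AP-1 factor, rose from 60.3, 128 and 32.2 CPM to 147, 168 and 90.3 CPM (1.05, adjusted p 0.0286). Tcf7l2, a Wnt pathway factor, fell from 12.2, 11.8 and 19.1 CPM to 8.62, 9.06 and 12.3 CPM (-0.51, adjusted p 0.0404). Their adjusted p without the block was 0.425 and 0.372. Beside these lists, the summed level of 10 interferon-stimulated genes was 69.6, 2037 and 96.7 CPM in siNC and 1447, 3862 and 1126 CPM in siPkm2. Each siPkm2 library was above its siNC partner, but siNC replicate 2 lay above siPkm2 replicates 1 and 3. With the block 4 of the 10 were called at a fold over 2, against 5.83% of all genes. Without it edgeR called 0, with 0 at an unadjusted p under 0.05, against 17.6% of all genes. Their part in the changes of the G1 genes was not tested.

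**Figure D5:**
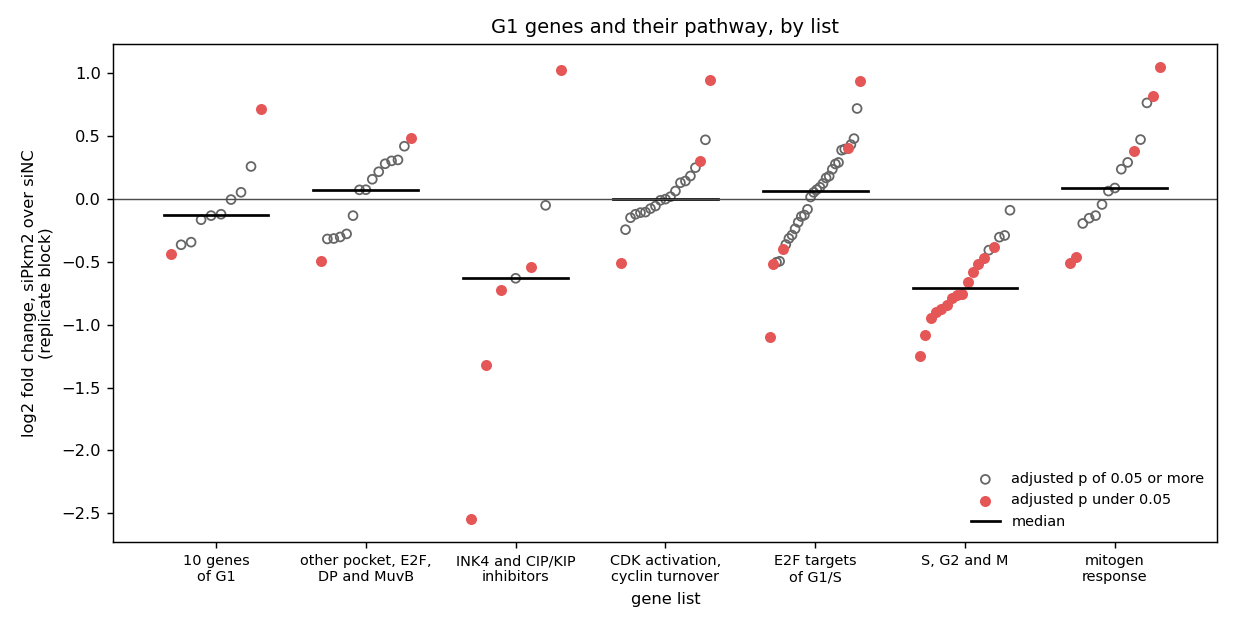
Log2 fold change of siPkm2 over siNC in the fit with the replicate number as a block, for each tested gene of the 10 G1 genes and the 6 pathway lists, with filled symbols at an adjusted p under 0.05 and bars at the medians. The S, G2 and M list lies wholly below 0 with a median of -0.71, the inhibitors have a median of -0.63, and the G1 genes centre at -0.13.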

How the data were processed

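RNA-seq of 3 siNC and 3 siPkm2 libraries was analysed from the processed values. The authors deposited, per gene and library, estimated counts (some fractional, not normalized) and TPM, which are scaled per transcript length and library. The deposited comparison columns (fold change, log2 fold change, p-value, adjusted p-value, significance) and group mean TPM were not used. The submitters' processing notes name mm9 and edgeR without a role, and the table is named for DESeq2. The aligner and counter are not given in the sources used here. Gene positions and 3′ untranslated regions came from GENCODE M21 (GRCm38), matched by Ensembl identifier, and promoter windows from RefSeq.

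Counts were rounded and compared in R 4.3.3 by edgeR 4.0.16 (TMM factors, filterByExpr, quasi-likelihood test, Benjamini-Hochberg adjustment over 15269 genes). Calls needed an adjusted p under 0.05 and a fold over 2, the threshold of the supplementary methods. Pair ratios and variance shares used log2(CPM + 0.5). Sums and shares of TPM were compared by exact permutation tests. Alternatives were RLE and upper-quartile factors, other count filters, limma 3.58.1 on log2 TPM, DESeq2 1.42.0, each library left out and the replicate number as a block. Leaving out both libraries of a replicate number with the block, and DESeq2 with the block, were added after the data were seen. Scripts were tested on simulated data. For simulated data with replicate structure, recovery and false calls of the fit without a block were not held to a threshold.

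The labels give both groups the numbers 1 to 3. Deviations of same-numbered libraries from their group means correlated at 0.72, 0.79 and 0.72 across genes, and those of different numbers at 0.217 or less, so the numbers were taken to pair the libraries. The pairing comes from the data, since no source says what a number stands for.

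The 10 genes and all gene lists were chosen with earlier results of these data known. Named were the 10 genes, Pkm, and of each list the genes with the largest positive and negative log2 fold change at a mean of at least 1 CPM, plus those called with the block at a fold over 2. Genes with the closest pattern were named for Ccnd1 and E2f1, of which 1 is not reported here. Lin54, a listed MuvB subunit, was not matched in the table and was not analysed here.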

Additional observations from a re-analysis of the deposited data

How the results depend on the processing

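Ccnd2, Ccne1, Cdk2 and E2f1 kept their direction in all 18 alternatives. The log2 fold changes ran from -0.70 to -0.18, 0.50 to 0.97, -0.27 to -0.021 and -0.59 to -0.20, so Cdk2 came close to no change. Direction was lost in at least 1 alternative in the other 6 genes. Leaving out 1 library gave a log2 fold change of 0.0058 for Ccnd1 (without siPkm2 replicate 3), -0.018 for Ccnd3 (without siPkm2 replicate 2), 0.15 for Ccne2 and 0.21 for Cdk4 (both without siNC replicate 1), -0.073 for Cdk6 (without siPkm2 replicate 1) and 0.075 for Rb1 (without siNC replicate 2). Their ranges were -0.27 to 0.0058, -0.018 to 0.15, -0.87 to 0.15, -0.29 to 0.21, -0.073 to 0.47 and -0.30 to 0.075. Cdk4 also stood at 0.013 without siNC replicate 3, at 0.16 without siPkm2 replicate 2 and at 0.0047 with DESeq2 and the block, and Rb1 at 0.0014 without siPkm2 replicate 3. Ccnd3 stood at -0.013 with upper-quartile factors and at -0.069 with the block and without replicate 2. With the block and without replicate 1, Cdk4 stood at 0.11 and Cdk6 at -0.028.

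The count of genes called, 0 in the reported fit, was 3 with upper-quartile factors, 430 with DESeq2, 9 with no filter, 3 with at least 10 counts in every library, and 1 with limma on log2(TPM + 1) or log2(TPM + 0.1). It was 0 to 105 with 1 library left out, the highest without siNC replicate 2. With the replicate block it was 890, and 3524 at any fold. With the block it was 1639 without both replicate 2 libraries, and 0 without both libraries of replicate 1 or 3. In those last fits 2 and 3 of the 10 G1 genes had an unadjusted p under 0.05, and that share of all genes was not counted. DESeq2 with the block called 1028. The block with any fold called 2 of the 10 G1 genes. Of the pathway lists, DESeq2 called 2 genes, the block 7, 34 at any fold, the block without replicate 2 called 10, and DESeq2 with the block 6. With all 6 libraries, the block changed the call of no other gene of the 10. Without both replicate 2 libraries Cdk6 and E2f1 passed as well. That made 4 of the 10, beside 5941 of 15185 genes at any fold in the same fit.

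The median of the 10 genes, -0.13, was -0.20 with upper-quartile factors, which moved the median of all genes from -0.02 to -0.09. It was -0.10 and -0.11 with limma on log2(TPM + 1) and log2(TPM + 0.1), -0.091 with the block without replicate 3, and -0.23 to 0.069 with 1 library left out. With CPM in place of TPM, the share differences were 2.45 points for Ccnd1, 1.95 points for Cdk6 and -15.5 points for Ccne2. Leaving out 1 library, the differences in TPM shares ran from -3.09 to 2.95 points for Ccnd1, from -1.77 to 2.46 for Cdk6 and from -18.0 to -4.55 for Ccne2. With 3 libraries a group, a change inside an interval that also includes no change cannot be told from none.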

Other observations

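Genes whose pattern over the 6 libraries was among the most like that of Ccnd1 were Nkiras1 and Sh3bp4, with Pearson correlations of log2 CPM of 0.992 and 0.987. For E2f1 the closest were Cracr2b, Dtwd1 and Gm20939, at 0.999, 0.991 and 0.990. These correlations are over 6 libraries that share replicate numbers and groups, and they are given as a description only.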
